A study of Mus musculus with 6 samples.

Results

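Heat shock proteins, their DNAJ co-chaperones, the BAG exchange factors and the cytosolic chaperonin form the set described here: 85 genes measured by 204 probe sets, of 18193 genes with a single symbol and 45037 probe sets in all. Members were taken by gene symbol (Hspa, Hspb, Hspd, Hspe, Hsph, Hsp90, Dnaja, Dnajb, Dnajc, Bag and Cct genes), a rule that uses no measured value but was set with earlier results of these data known, and each gene was read from its brightest probe set (highest mean of all 6 arrays). The pattern admitted Hspbp1, an HSP70-binding exchange factor and not a small heat shock protein, which is kept apart below. Probe sets shared by Dnajc19 and its pseudogene carry 2 symbols and were not used. Cerebellum of 3 wild-type mice and 3 transgenic mice carrying daDREAM was compared on Affymetrix Mouse Genome 430 2.0 arrays, 1 array per biological replicate. daDREAM is a form of DREAM, the calcium-binding repressor encoded by Kcnip3, whose repression of transcription is insensitive to calcium. The promoter that drives the transgene, the strain, the sex and the age of the mice are not stated in the labels, and the wild-type group is described by its genotype alone.

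Molecular chaperones bind unfolded protein and use cycles of ATP hydrolysis to fold it, refold it or hand it to degradation. HSP70 proteins are the hub: DNAJ proteins deliver clients and stimulate their ATPase, BAG and HSP110 proteins exchange the nucleotide, and HSP90 and the ring-shaped chaperonins finish particular clients. Many cytosolic members are induced by heat shock factors at GAA-containing heat shock elements, while those of the endoplasmic reticulum respond to the unfolded protein response through a separate element. Neurons carry high constitutive amounts of HSP70 and HSP90, and specialised DNAJ proteins serve synaptic vesicle release and the uncoating of clathrin-coated vesicles.

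The promoter sequences of members with such elements are shown because they hold letters of the elements known from these 2 response systems. They come from RefSeq gene starts in assembly GRCm38.p6, which gave a window for 70 of the 85 genes, and were searched on both strands over the 250 bases before the start. The endoplasmic reticulum stress element (CCAAT and CCACG separated by any 9 bases) was found in 3 members: Hspa5, Hsp90b1 and Dnajc3. Of all 32851 windows, 0.113% held it, against 3.33% of the 90 member windows. Capitals mark the element on either strand, and each run reads 5′ to 3′ along the gene.
Hspa5: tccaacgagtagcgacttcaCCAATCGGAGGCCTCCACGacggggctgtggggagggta
Hsp90b1: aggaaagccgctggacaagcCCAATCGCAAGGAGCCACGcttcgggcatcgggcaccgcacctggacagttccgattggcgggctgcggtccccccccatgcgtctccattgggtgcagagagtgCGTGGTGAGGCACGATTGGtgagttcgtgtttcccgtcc
Dnajc3: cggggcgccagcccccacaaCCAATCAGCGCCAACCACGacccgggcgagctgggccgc

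These stretches lie upstream of the starts at chr2:34772005-34772063 on the plus strand (Hspa5), chr10:86705513-86705676 on the minus strand (Hsp90b1, 2 elements) and chr14:118937807-118937865 on the plus strand (Dnajc3). The full heat shock element of 3 units (GAA, TTC and GAA, each separated by any 2 bases) was present in the windows of Hspd1, Hspe1 and Dnajb6, in 4.44% of member windows and 0.466% of all windows. Hspd1 and Hspe1 are divergent neighbours that share the sequence. The shorter forms overlap the long one: GAANNTTC was found in 12 members (14.4% of member windows, 6.69% of all) and TTCNNGAA in 7 (10% and 7.17%). Capitals again mark the matches.
Hspe1: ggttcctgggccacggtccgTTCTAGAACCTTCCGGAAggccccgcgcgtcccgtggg
Hspa1b: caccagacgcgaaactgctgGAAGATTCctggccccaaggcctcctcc
Hsph1: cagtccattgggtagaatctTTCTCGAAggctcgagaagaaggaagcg
Hspb1: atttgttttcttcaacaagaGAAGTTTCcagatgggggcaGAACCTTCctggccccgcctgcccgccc

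Their positions are chr1:55088039-55088096 (plus strand), chr17:34959315-34959362 (minus), chr5:149636342-149636389 (minus) and chr5:135887782-135887849 (plus). The 250-base windows of Hspa1a and Hspa1b, neighbouring copies of the inducible HSP70 gene, differ at 3 bases. A match describes letters in the window and does not show that a factor binds there.

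The tissue label was checked against marker genes. Purkinje cell genes Pcp2 and Calb1 stood at means of 12.41 and 12.27 (log2) in wild type and the granule cell gene Gabra6 at 12.05, while the 4 measured forebrain genes Neurod6, Tbr1, Emx1 and Ppp1r1b stood at 3.04, 2.75, 5.23 and 9.02. Levels of different probe sets are not on a common scale, so this is a rough check. Marker lists of other cell types differed in direction, with 0 markers past an adjusted p under 0.05 (limma). All 11 measured choroid plexus markers were higher in daDREAM, with an array mean of 5.69 to 5.97 in wild type and 6.15 to 6.37 in daDREAM. All 9 microglial markers were higher (5.90 to 6.001 against 6.11 to 6.19), 8 of 9 meningeal fibroblast markers were higher (6.88 to 6.89 against 7.03 to 7.12), and all 5 endothelial markers were lower (7.01 to 7.23 against 6.88 to 7.03, ranges that overlap). Arrays carry no detection call, so no marker can be called absent. The hybridization controls, RNA added to each array in fixed amounts, averaged 8.99, 8.99 and 9.48 in wild-type replicates 1, 2 and 3, and 9.47, 10.14 and 10.47 in daDREAM replicates 1, 2 and 3 (2-sided exact permutation p = 0.2, where 0.1 is the smallest possible). The part of these cell types in the chaperone values was not tested. In whole tissue, fewer cells of a type and less RNA per cell cannot be told apart.

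No chaperone gene passed the test between genotypes. Of 204 chaperone probe sets, limma gave 0 an adjusted p under 0.05, as it did 0% of all 45037 probe sets, and the trended and robust variance prior also called 0. At an unadjusted p under 0.05 there was 1 member probe set lower and there were 2 higher, 0.490% and 0.980% of the members where all probe sets gave 0.706% and 1.11%. These were Hspa5 on the lower side, and Dnajc17 and 1 of the dimmer Dnajb5 probe sets on the higher side. Without daDREAM replicate 1 the count in both directions was 41, 20.1% of the member probe sets, where all probe sets gave 16.1%. Without wild-type replicate 3 it was 11 (5.39%, all probe sets 2.78%), and without wild-type replicate 2 it was 0. All differences below subtract wild type from daDREAM on the log2 scale and carry 95% intervals from that fit. Replicates are labelled as independent biological ones, and with 6 arrays the standard error of a difference had a median of 0.15 over all probe sets.

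Taken by direction alone, 56 of the 85 genes were lower in daDREAM, 27 higher and 2 equal. That is 65.9% lower, against 48.0% of all 18193 genes. The median difference was -0.08 over the chaperone genes and 0.01 over all genes, and the within-genotype SD of the array median of the members was 0.082. Counts by role were as follows, and differences between roles were not tested. Among the HSP70 and HSP110 genes 13 of 14 were lower, all 4 DNAJA genes were lower, and 5 of 6 BAG genes were lower. Both HSP90 genes among the members and both mitochondrial chaperonin genes were lower. The DNAJC genes were divided, 14 lower and 12 higher with a median of -0.00, and 5 of 8 small heat shock genes were higher. Every small heat shock gene but Hspb1 had a mean level below 7. Of all genes, 43.9% were lower at levels from 5 to 7 and 37.9% below 5.

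**Figure D1:**
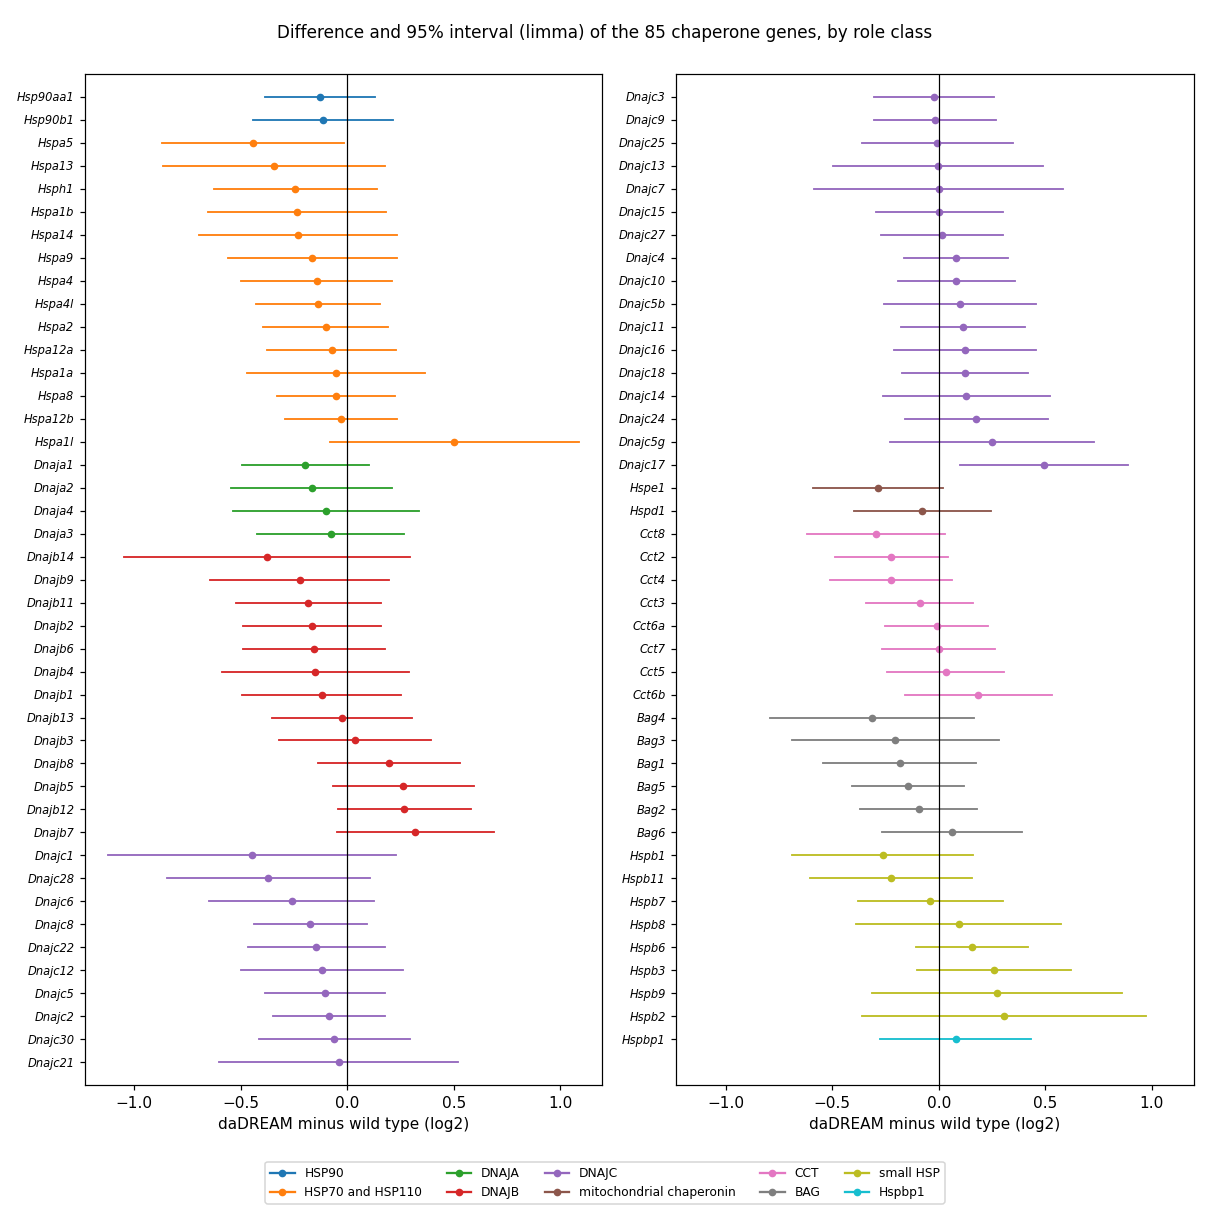
Difference between daDREAM and wild type (x axis, log2) for each of the 85 chaperone genes (rows, grouped and coloured by role class); points are estimates and lines are 95% limma intervals. The intervals of Hspa5 (below 0) and Dnajc17 (above 0) leave out 0, and the others cross it.

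Over the 14 HSP70 and HSP110 genes the median difference was -0.14. Hspa5 encodes BiP, the HSP70 of the endoplasmic reticulum lumen and a sensor partner of the unfolded protein response. It read 10.59, 10.54 and 10.05 in wild-type replicates 1 to 3 and 10.21, 9.88 and 9.76 in daDREAM replicates 1 to 3. Wild-type replicate 3 lay below daDREAM replicate 1, so the genotypes overlapped. The means were 10.39 ± 0.30 and 9.95 ± 0.23 (SD, n = 3), a difference of -0.44 (interval -0.87 to -0.02) and a limma adjusted p = 0.998, or 26.5% lower in daDREAM. Its other probe sets differed by -0.21 and -0.12, and the mean of all 3 by -0.26. Adding the hybridization control level to the model gave Hspa5 a difference of 0.07, of opposite sign. Without wild-type replicate 3 it was -0.61, and without daDREAM replicate 3 it was -0.35.

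Hspa8, the constitutive cytosolic HSP70 that also strips clathrin from vesicles, read 12.60, 12.62 and 12.39 in wild type and 12.50, 12.42 and 12.53 in daDREAM. Its difference of -0.05 (interval -0.33 to 0.22) was within the spread of the arrays, and 2 of its 4 probe sets were higher. Hspa1b, a heat-inducible HSP70, read 6.69, 6.52 and 6.21 in wild type and 6.50, 5.96 and 6.25 in daDREAM, a difference of -0.24 (-0.65 to 0.18). The groups overlapped here too, and the remaining probe sets gave -0.59 and -0.44. Its near-identical neighbour Hspa1a differed by -0.05 (-0.47 to 0.36), and since the copies share sequence, signal could not be assigned between them with certainty.

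Hsph1, the HSP110 exchange factor, read 9.72, 9.70 and 9.22 in wild type and 9.45, 9.16 and 9.30 in daDREAM. Wild-type replicate 3 stood with the daDREAM arrays, and the difference was -0.24 (-0.63 to 0.14). Its relative Hspa4 differed by -0.14 (-0.50 to 0.21). The single family member with the opposite sign was Hspa1l, a spermatid HSP70, at 0.50 (-0.08 to 1.09). It was dim, at 3.84, 3.59 and 4.00 in wild type and 3.83, 4.23 and 4.88 in daDREAM, and daDREAM replicate 3 set most of the difference: without it the value was 0.22.

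**Figure D2:**
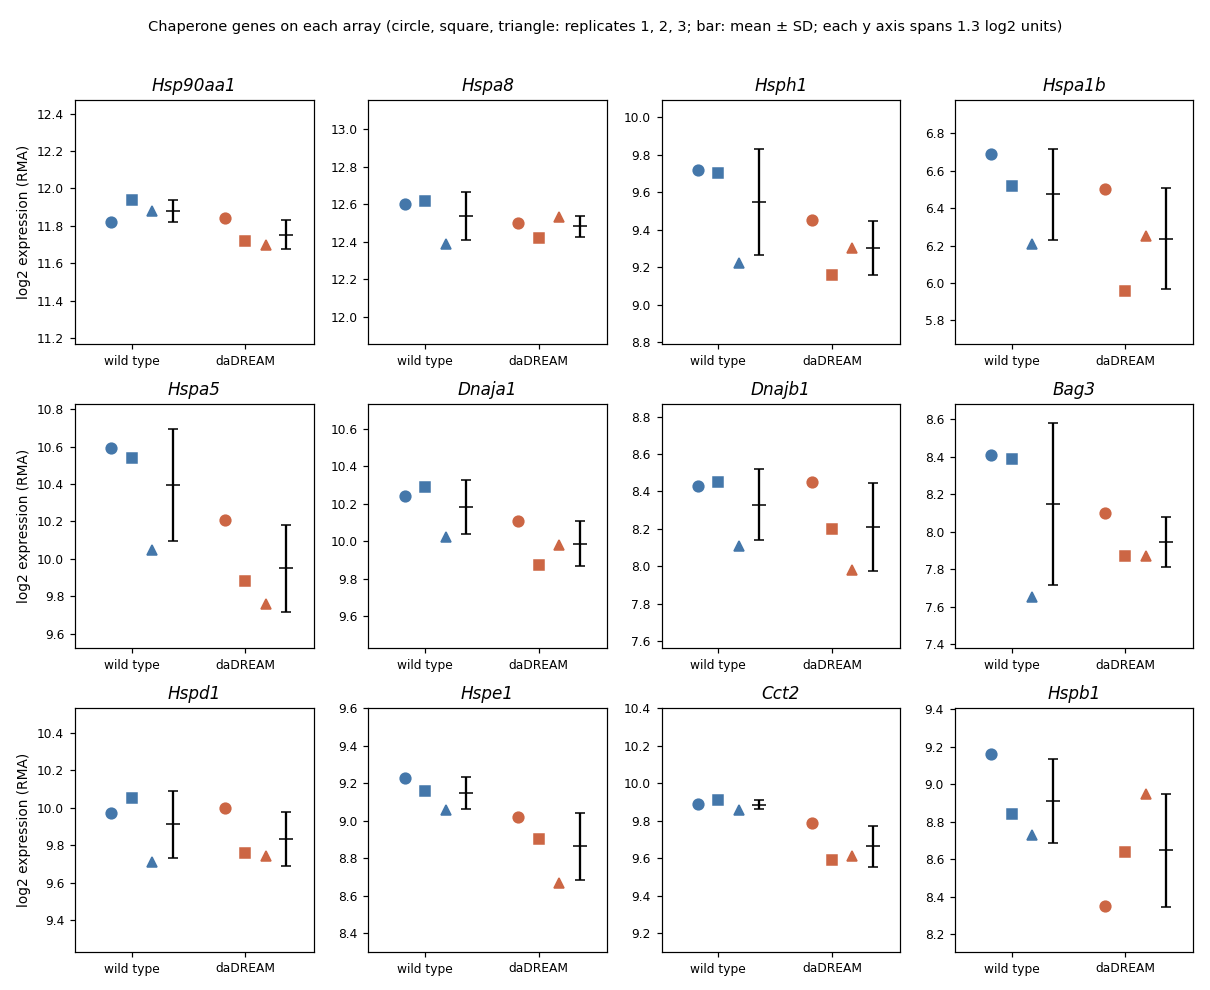
Log2 expression (y axis, RMA units) of 12 chaperone genes on each array, wild type in blue and daDREAM in orange, with replicates 1, 2 and 3 as circle, square and triangle and the mean ± SD (n = 3) beside them. Hspe1 and Cct2 have every daDREAM array below every wild-type array, while in Hspa5, Hsph1, Bag3 and Hspd1 wild-type replicate 3 lies below daDREAM replicate 1.

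Among the members, HSP90 was measured through 2 genes. The mitochondrial HSP90, Trap1, falls outside the symbol rule and was higher on every daDREAM array, by 0.18. A further cytosolic HSP90 gene, Hsp90ab1, had no probe set with a single symbol and was not measured here. Hsp90aa1, the inducible cytosolic form, read 11.82, 11.94 and 11.88 in wild type and 11.84, 11.72 and 11.70 in daDREAM. daDREAM replicate 1 lay within the wild-type range, and the difference was -0.13 (-0.39 to 0.13). Of the 5 Hsp90aa1 probe sets 3 were lower and 2 higher. Hsp90b1, the endoplasmic reticulum form GRP94, differed by -0.11 (-0.44 to 0.21) at its representative probe set. A dimmer probe set of Hsp90b1 differed by -0.28 (-0.59 to 0.02) without overlap between genotypes.

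J-domain proteins fall into the DNAJA, DNAJB and DNAJC subfamilies. At their brightest probe sets all 4 DNAJA genes, the general partners of HSP70, were lower, by -0.20 to -0.08. Their probe sets did not all share this direction. Those lower were 2 of 3 in Dnaja1, 3 of 4 in Dnaja2, 1 of 3 in Dnaja3 and 1 of 3 in Dnaja4. Dnaja1, which pairs with Hspa8, read 10.24, 10.29 and 10.02 in wild type and 10.11, 9.87 and 9.98 in daDREAM, a difference of -0.20 (-0.50 to 0.10) with 1 array of overlap on each side. Without daDREAM replicate 1 the median of this subfamily was -0.27, and without daDREAM replicate 3 it was -0.03, so its size rests on single arrays.

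Of 13 DNAJB genes 8 were lower, and the subfamily ran from -0.38 to 0.32. Dnajb1, the inducible HSP40, read 8.43, 8.45 and 8.11 in wild type and 8.45, 8.20 and 7.98 in daDREAM, a difference of -0.12 (-0.49 to 0.25), and its other probe set differed by 0.08. Dnajb6, an inhibitor of polyglutamine aggregation and one of the genes with the full heat shock element, differed by -0.16 (-0.49 to 0.18). The widest on the lower side was Dnajb14, an endoplasmic reticulum membrane protein, at -0.38 (-1.05 to 0.30). On the higher side stood its close relative Dnajb12, at 7.75, 7.81 and 7.58 in wild type and 7.78, 8.09 and 8.07 in daDREAM. That is a difference of 0.27 (-0.05 to 0.58), and the other Dnajb12 probe set differed by 0.29. Dnajb5 also differed by 0.26 (-0.07 to 0.59), with daDREAM replicate 1 at 7.11, inside the wild-type range.

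The 27 DNAJC genes share little beyond the J domain. Dnajc17, a nuclear protein linked to splicing, read 6.27, 6.21 and 6.45 in wild type and 6.51, 6.77 and 7.13 in daDREAM. The groups did not overlap, and the difference was 0.49 (0.10 to 0.89, limma adjusted p = 0.998), or 1.41-fold. Its other probe sets differed by 0.23 and -0.01, and a model that includes the hybridization control level gave 0.02. Without daDREAM replicate 3 it was 0.33. Dnajc8, which is also associated with splicing complexes, went the other way without overlap, at 10.32, 10.38 and 10.38 against 10.27, 10.23 and 10.06, a difference of -0.17 (-0.44 to 0.09). Dnajc28 differed by -0.37 (-0.85 to 0.11), with daDREAM replicate 1 at 6.34, the highest of all 6 arrays, and its other probe set by 0.08. The third DNAJC gene without overlap was Dnajc4, higher by 0.08, a difference below the median standard error.

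At their brightest probe sets, the members of this subfamily that serve synapses were lower by small amounts. Dnajc6, auxilin, which recruits Hspa8 to clathrin coats, differed by -0.26 (-0.65 to 0.13). It read 10.25, 10.30 and 10.15 in wild type and 10.30, 9.95 and 9.67 in daDREAM, and daDREAM replicate 1 equalled the top wild-type array. Its other 3 probe sets differed by 0.16, -0.29 and 0.29, so their signs disagree. Dnajc5, the cysteine string protein of synaptic vesicles, differed by -0.10, and Dnajc13, an endosomal partner of Hspa8, by -0.00. Of the Dnajc5 probe sets 3 were lower and 2 higher, and both of Dnajc13 were lower. With Hspa8 these make up a short list of 4 synaptic and uncoating chaperones, all lower at their brightest probe sets. Of all genes, 59.2% were lower at levels from 7 to 9 and 63.1% from 9 upwards.

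Among chaperonins, Hspe1 encodes the lid of the mitochondrial folding chamber whose barrel is Hspd1. Hspe1 read 9.23, 9.16 and 9.06 in wild type and 9.02, 8.90 and 8.67 in daDREAM. Every daDREAM array lay below every wild-type array, with a difference of -0.29 (-0.59 to 0.02). The other Hspe1 probe set differed by -0.03. Hspd1, which shares its promoter region with Hspe1, read 9.97, 10.05 and 9.71 against 10, 9.76 and 9.74, a difference of -0.08 (-0.40 to 0.25) with overlap.

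CCT is the cytosolic ring that folds actin and tubulin. Of its 8 measured genes 5 were lower, 2 higher and 1 equal. Cct8 differed by -0.29 (-0.62 to 0.03) and Cct4 by -0.22 (-0.51 to 0.06), both with overlapping arrays. Cct2 read 9.89, 9.91 and 9.86 in wild type and 9.79, 9.59 and 9.61 in daDREAM, so the groups did not overlap, and differed by -0.22 (-0.49 to 0.04). All 3 Cct2 probe sets were lower, but the dimmer ones, at -0.07 and -0.13, had overlapping arrays. Cct3 also did not overlap, at -0.09. Cct6a hardly varied over the 6 arrays, from 10.67 to 10.70, and Cct7 differed by 0.00. A subunit that the symbol rule leaves out, Tcp1, was likewise below wild type on every daDREAM array, at -0.18 (-0.42 to 0.07), and was named after its value was seen. Subunits of the same ring therefore ranged from -0.29 to 0.03, leaving aside the dim testis form Cct6b at 0.19.

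BAG proteins release nucleotide from HSP70. Bag1 differed by -0.18 (-0.54 to 0.18). Bag3, the stress-inducible member that routes clients to autophagy, read 8.41, 8.39 and 7.65 in wild type and 8.10, 7.87 and 7.87 in daDREAM. Its difference of -0.20 (-0.69 to 0.28) lay within a wild-type SD of 0.43, and wild-type replicate 3 was the lowest of all 6 arrays. Bag4 differed by -0.31 (-0.79 to 0.16), and Bag6, the large member that handles tail-anchored and mislocalised proteins, by 0.06. Hspbp1 differed by 0.08 (-0.27 to 0.43).

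Small heat shock proteins hold unfolded clients without ATP. Hspb1, the stress-inducible member, read 9.16, 8.84 and 8.73 in wild type and 8.35, 8.64 and 8.95 in daDREAM, a difference of -0.26 (-0.69 to 0.16). Its lowest array was daDREAM replicate 1, as in the HSP70 genes Hspa4l and Hspa12a. In the mean over all HSP70 and HSP110 genes, daDREAM replicate 1 was instead the highest daDREAM array. Hspb6 was higher without overlap, by 0.16. Hspb3 differed by 0.26 (-0.10 to 0.62), at 4.57, 4.59 and 4.58 in wild type and 4.55, 5.13 and 4.84 in daDREAM. Hspb2 differed by 0.31, with intervals in both genes that cross 0. Hspb11, a subunit of the intraflagellar transport machinery that carries the family name, differed by -0.22.

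Some members differed in level range, and direction followed it. The 11 genes with a mean below 5 on the log2 scale include forms known from testis (Hspa1l, Dnajb3, Dnajb13, Dnajc5b, Hspb9 and Cct6b), and 8 of them were higher in daDREAM, with a median of 0.19. Just 3 of the 11 were lower, 27.3%, against 37.9% of all genes in that range. In the range from 5 to 7, 10 of 18 were lower (55.6%, all genes 43.9%). From 7 to 9 it was 23 of 32 (71.9%, all genes 59.2%), and from 9 upwards 20 of 24 (83.3%, all genes 63.1%). The median difference of the chaperone genes at 9 and above was -0.15, and that of all genes in the range was -0.04. Bright genes were thus more often lower over the whole array, and the chaperone share lay above the share of all genes in the upper 3 ranges.

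**Figure D3:**
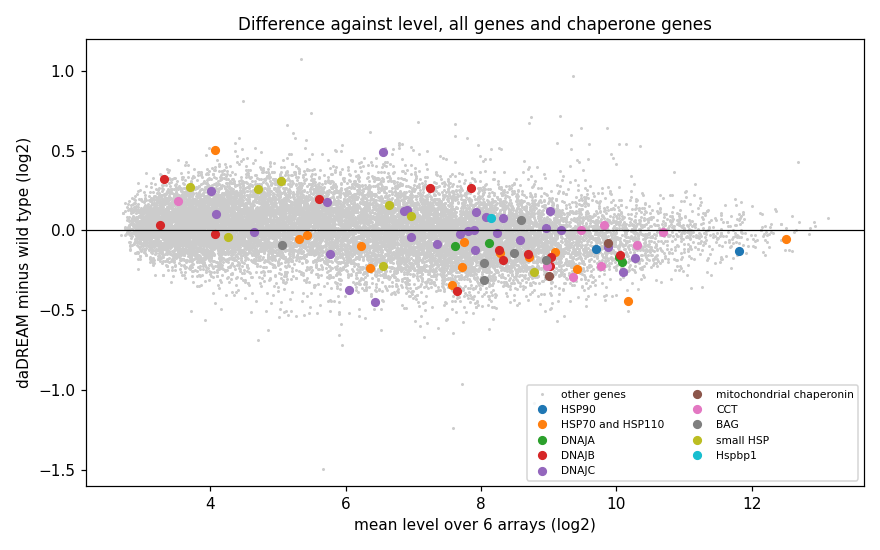
Difference between daDREAM and wild type (y axis, log2) against the mean level over the 6 arrays (x axis, log2) for all genes (grey) and the chaperone genes (coloured by role class). Of the 24 chaperone genes at a level of 9 or above 20 lie below 0, and of the 11 below a level of 5 there are 8 above it.

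Genes whose arrays did not overlap were few. On the lower side there were 4 chaperone genes (Cct2, Cct3, Dnajc8 and Hspe1), 4.71% against 2.04% of all genes, and on the higher side 3 (Dnajc17, Dnajc4 and Hspb6), 3.53% against 3.55% of all genes. The lower count depended on single arrays. Without daDREAM replicate 1 it was 30 (35.3%, all genes 16.5%), and without wild-type replicate 3 it was 20 (23.5%, all genes 9.10%). After median centring of the arrays it was 1 (1.18%, all genes 2.45%), a share below that of all genes.

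Those same arrays stood apart within their own genotype. Wild-type replicate 3 was the lowest wild-type array in 52 of the 85 genes, 61.2%, where all genes gave 39.9%. daDREAM replicate 1 was the highest daDREAM array in 53 genes, 62.4%, where all genes gave 39.2%. The mean deviation of the 85 genes from their own 6-array means was 0.06, 0.07 and -0.06 in wild-type replicates 1, 2 and 3 and 0.06, -0.03 and -0.10 in daDREAM replicates 1, 2 and 3. daDREAM replicate 1 therefore lay with wild-type replicates 1 and 2, and wild-type replicate 3 with the remaining daDREAM arrays. The BAG genes spanned the range from 0.19 in wild-type replicate 2 to -0.24 in daDREAM replicate 3, and the DNAJA genes from 0.19 in daDREAM replicate 1 to -0.23 in daDREAM replicate 3. Small heat shock genes ran the other way, with 0.20 in daDREAM replicate 2 and -0.14 in daDREAM replicate 1.

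**Figure D4:**
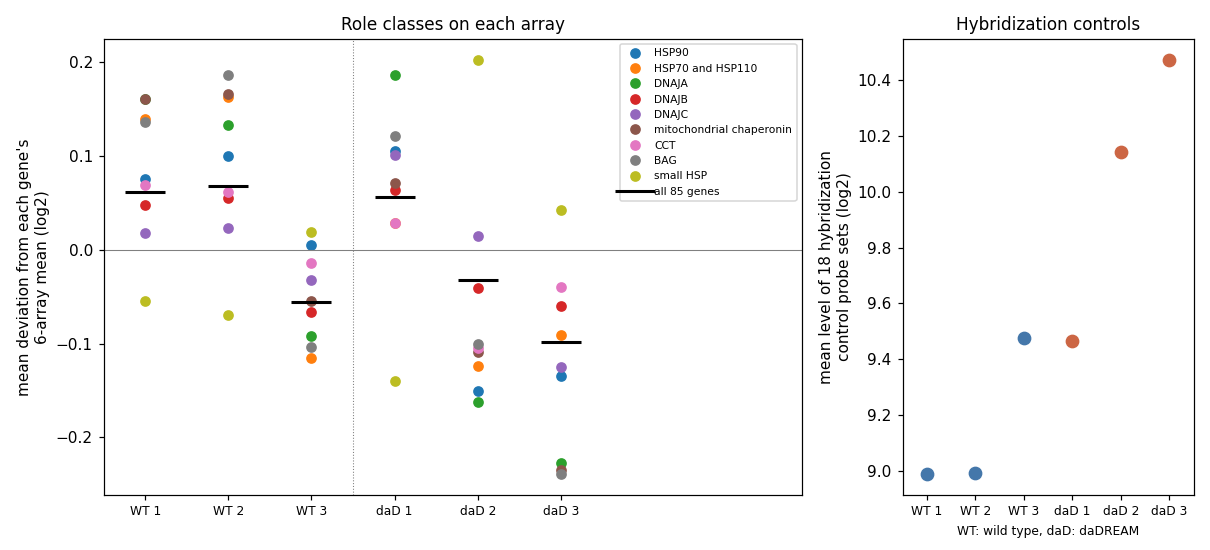
Left, mean deviation of each role class from the 6-array mean of its genes (y axis, log2) on each array, with black bars for all 85 genes; right, mean level of the 18 hybridization control probe sets (log2) on the same arrays. Chaperone bars are highest on wild-type replicates 1 and 2 and daDREAM replicate 1 and lowest on daDREAM replicate 3, where the control level is highest at 10.47.

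The hybridization control level followed these values in part. It was lowest on wild-type replicates 1 and 2 and highest on daDREAM replicates 2 and 3, but wild-type replicate 3 and daDREAM replicate 1 had nearly the same control level (9.48 and 9.47) and mean chaperone deviations of -0.06 and 0.06. With that level in the model 26 of the 85 genes were lower (30.6%, all genes 48.3%). The median difference was 0.11, of opposite sign, and that of all genes was 0.02. In that fit 18.1% of member probe sets and 23.2% of all probe sets had an unadjusted limma p under 0.05. The control level partly follows genotype, so that fit cannot separate them. The 3′ minus 5′ difference of actin probe sets, which grows as RNA is degraded, was 0.79, 0.79 and 0.78 in wild type and 0.96, 0.58 and 0.63 in daDREAM (2-sided exact permutation p = 0.7), and was highest on daDREAM replicate 1. The same difference for Gapdh was 0.25, 0.29 and 0.12 in wild type and 0.25, 0.01 and 0.08 in daDREAM (2-sided exact permutation p = 0.3). The interquartile range of all probe sets on an array was 3.27, 3.38 and 3.10 in wild type and 3.49, 3.15 and 2.97 in daDREAM (2-sided exact permutation p = 0.8). The Gapdh difference and the interquartile range were both higher on wild-type replicates 1 and 2 and daDREAM replicate 1 than on the other 3 arrays, as was the mean chaperone deviation. After quantile normalization, which equalises the interquartile range, 62.4% of the chaperone genes were lower against 47.1% of all genes. The part of the actin and Gapdh measures in the chaperone values was not tested.

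Of 8 members listed for the endoplasmic reticulum 7 were lower, with a median of -0.20, where 43.9% to 63.1% of all genes were lower in the level ranges these members span. The list is not complete for the compartment. Among others it leaves out the membrane proteins Dnajb12 (0.27) and Dnajb14 (-0.38) described above. Also left out were the membrane J proteins Dnajc14 (0.13), Dnajc16 (0.12) and Dnajc18 (0.12), higher at their brightest probe sets. In Dnajc14 and Dnajc18, 2 of 3 probe sets were lower. The largest difference of the list was that of Dnajc1, a membrane J protein of the compartment, at -0.45. It read 6.70, 6.64 and 6.61 in wild type and 6.72, 6.45 and 5.44 in daDREAM, so that 1 array, daDREAM replicate 3, carried the difference, and the interval was -1.12 to 0.23. Hspa13 differed by -0.34, Dnajb9 by -0.22 and Dnajb11, the BiP co-chaperone, by -0.18. Of the genes with the stress element in their promoter window, Hspa5 differed by -0.44, Hsp90b1 by -0.11 and Dnajc3, an inhibitor of the kinase PERK, by -0.02. All 12 measured genes of a core list of 13 heat-inducible chaperones were lower at their brightest probe sets, by -0.29 to -0.05 (median -0.17). Of all genes, 43.9% to 63.1% were lower in the level ranges that these genes span. Hsp90aa1, Hspa8, Dnaja1 and Dnajb1 also had probe sets that were higher. The gene of that list without a measurement was Hsp90ab1. That list overlaps one already known to be lower in these arrays, so its direction is not independent evidence. Members with a short heat shock motif in the window were lower in 11 of 16 cases (68.8%), and those without in 34 of 54 (63%).

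Of 45 measured proteostasis genes outside these families 21 were lower and 24 higher, with a median of 0.01, and 0 passed limma after adjustment, nor did any reach an unadjusted p under 0.05. Among 22 co-chaperones of HSP90 and HSP70, a list that also counts the member Hspbp1, 13 were higher and 9 lower. The largest was Chordc1, an HSP90 partner, at -0.41 (-0.89 to 0.07), while Cdc37, the kinase adaptor of HSP90, differed by 0.14, Ppp5c, an HSP90-bound phosphatase, by 0.18, Stub1, the ubiquitin ligase that acts on chaperone clients, by 0.13 and Trap1, the mitochondrial HSP90, by 0.18. The latter 4 were higher on every daDREAM array and were named after their values were seen. They are 4 of the 22 on the list, and 0 lay lower without overlap. Over all genes the shares without overlap were 3.55% higher and 2.04% lower. The heat shock factor genes Hsf2 and Hsf4 and the factor-binding gene Hsbp1 were higher, led by Hsf2 at 0.23 (-0.18 to 0.64), which was dim. Pdcl, a CCT cofactor, led the CCT1 and prefoldin list at -0.36, where 7 of 10 genes were lower, Afg3l2 the mitochondrial proteases at 0.16, and Serpinh1, the collagen chaperone, the remaining list at 0.28.

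Probe sets of the same gene differed in sign in many cases. Of 53 chaperone genes with several probe sets, 19 had all of them lower, 4 had all higher, and in 30 the signs differed. Genes with every probe set lower included Hspa5, Hspa1b, Hspb1, Hsph1, Cct2 and Dnajc1. With the mean of all probe sets of a gene in place of the brightest, 53 of the 85 genes were lower and the median difference was -0.03.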

How the data were processed

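Cerebellar RNA of 3 wild-type and 3 daDREAM mice was hybridised to 1 array each. The deposited values are log2 expression on each array for each probe set. As the submitters' processing notes state, the authors made them with RMA and affy, with no version named. RMA equalises the probe distributions of arrays before probe sets are summarised, so a shift common to most transcripts cannot be seen, and differences at low signal are understated. After removal of 64 control probe sets, 45037 were tested, of which 34945 have 1 symbol in the platform annotation, 932 several and 9160 none. Genotype and replicate came from the sample titles.

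The test was limma 3.58.1 under R 4.3.3, with a moderated 2-sided test per probe set and Benjamini-Hochberg adjustment over all of them at 0.05, and the procedure was tested on simulated data. Array measures were compared with exact permutation tests. Genes named were the core heat-inducible members, the brightest of each role class, the 6 members per direction with the smallest unadjusted p, and the largest difference of each further list; others were chosen after their values were seen. Members, lists and rule were chosen with earlier results of these data known. Promoter windows were searched by exact letters.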

Additional observations from a re-analysis of the deposited data

How the results depend on the processing

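The number of arrays limits precision, and no alternative gave a chaperone probe set an adjusted p under 0.05 with limma. At an unadjusted p under 0.05 there were 0 without wild-type replicate 2 and 41 without daDREAM replicate 1. With the replicate number as a block 56 genes were lower, the median difference was -0.08 and 0 probe sets passed. The numbers gave deviation correlations of 0.12, -0.28 and 0.32. The labels do not say whether the numbers pair animals or runs, and these few values cannot decide it. When 1 array was left out, 52 to 60 genes were lower, the median ran from -0.13 to -0.05, and 4 to 30 genes did not overlap on the lower side. That count was 1 after median centring (1.18%, all genes 2.45%). It was also 1 without _x_at, _s_at and _a_at probe sets (1.3%, all genes 1.86%), where fewer genes were measured.

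Quantile normalization turned the DNAJC median to 0.041 and Cct6a to 0.0075. Over the runs without 1 array the DNAJC median ran from -0.045 to 0.053, that of small heat shock genes was -0.04 without daDREAM replicate 2 and -0.26 for the 1 gene at a mean level of at least 7. Hspa1a was lowest, at -0.22, when wild-type replicate 3 was left out and highest, at 0.093, when wild-type replicate 2 was. Hspa8 was 0.02 as the mean of its probe sets and 0.10 without _x_at, _s_at and _a_at probe sets. In that setting the CCT median was 0.033 and Cct8 was 0.033. Cct8 was then read from a different, dim probe set, with a mean level of 3.10 against 9.36 for its brightest. The causes were not tested.

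The hybridization control level as a covariate left 26 genes lower (30.6%, all genes 48.3%) and turned the median to 0.11. Class medians became 0.088 for HSP90, 0.097 for HSP70 and HSP110, 0.26 for DNAJA, 0.14 for DNAJB, 0.11 for DNAJC, 0.11 for the mitochondrial chaperonin and 0.24 for BAG. Among named genes it gave Bag1 0.21, Bag3 0.27, Cct8 0.041, Dnaja1 0.013, Dnajb1 0.32, Dnajb5 -0.062, Dnajb6 0.17, Dnajb7 -0.085, Dnajc28 0.16, Hspa1a 0.27, Hspa1b 0.15, Hspa1l -0.27, Hspa4 0.11, Hspa5 0.074, Hspa8 0.032, Hspd1 0.23 and Hsph1 0.087, each with the sign turned and none past the threshold.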
